A study of Rattus norvegicus with 6 samples.

Results

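The genes described here encode feedback inhibitors of the extracellular signal-regulated kinases (ERKs), namely the dual-specificity phosphatases Dusp1, Dusp2, Dusp4, Dusp5, Dusp6 and Dusp10, the Sprouty proteins Spry1, Spry2 and Spry4, and the Sprouty-related protein Spred1. They were chosen by name, with earlier results of these data known. Each was represented by its brightest array probe, on average over the 6 arrays. Of the 10 genes, 9 had a probe whose accession matched the rat gene table, out of 16575 gene symbols with a matched probe in all. Each of the 9 had exactly 1 probe, so the signal decided nothing in the choice of probe. No probe was matched to Spry1, which was not analysed here.

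ERK is the last kinase of a cascade that runs from growth factor and G protein-coupled receptors through Ras, Raf and MEK, and in cardiac muscle it is known for its part in hypertrophic growth. Many inhibitors of the cascade are themselves made when ERK is active, so their transcripts are widely read as a record of recent signalling. The dual-specificity phosphatases remove phosphate from mitogen-activated protein (MAP) kinases, whereas Sprouty and Spred proteins act upstream, at the level of receptor adaptors, Ras and Raf.

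The samples were cultured neonatal rat ventricular cardiomyocytes (NRVCs, NRVMs in the sample labels), primary heart muscle cells from the ventricles of Sprague-Dawley rats aged 1 to 2 days. Control cells stayed in the culture medium, and C3a cells received recombinant C3a, the small receptor-binding fragment of complement C3, at 0.5 µg/ml for 12 h. The comparison asks which transcripts in these cells respond to C3a, with 3 arrays per group. Per the labels a preparation pooled 8 to 10 rats and was preplated, a step that removes attaching non-muscle cells, and the medium contained no serum. The methods of the study instead describe 1 h in 1% fetal bovine serum before C3a was added. Nothing in the labels says that the 3 replicates of a group came from separate preparations, so the p-values measure the spread between these samples, which may be technical.

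Each RNA sample was labelled with Cy3 and hybridised to its own Agilent rat array. Signals are given as the log2 of the scanner's background-corrected intensity minus that of the array's 75th percentile (P75), so that a level of 0 marks the P75, which was between 207 and 367 intensity units. The share of probes well above background in the scanner's own call was 38.6% on control replicate 1 and between 53.7% and 57.3% on the other arrays. The median local background there was 47 units against 23 or 24 elsewhere, and the dimmest probe well above background lay at a level of -2.28 on that array and between -5.09 and -4.18 on the others. All arrays were on 1 slide with 1 group on either side, so slide position and treatment cannot be told apart. A probe was kept for testing if every array of control, of C3a or of both called it well above background, which left 23438. The number of arrays limits the precision throughout.

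The identity of the cells was checked with marker lists. All 10 cardiomyocyte markers, among them Myh6, Tnnt2 and Ryr2, were well above background on all 6 arrays. So were 6 of 8 fibroblast, 5 of 6 endothelial, 3 of 5 smooth muscle and 2 of 6 macrophage markers, and the macrophage markers Adgre1, Cd14 and Ptprc were not kept in either group. Linear levels were summed over the kept markers of each list, which left out the endothelial marker Tie1 and the macrophage markers just named. The sum of the cardiomyocyte markers, in units of the P75, was 5206 to 6736 in control and 6474 to 7333 with C3a. That of the fibroblast markers was 97.5 to 111 against 96.5 to 113, of the endothelial markers 33.1 to 45.8 against 42.2 to 53.4, of the smooth muscle markers 33.2 to 38.6 against 34.5 to 36.8, and of the macrophage markers 5.51 to 6.89 against 5.41 to 5.95. Under P75 scaling the difference, C3a minus control, was above 0 for 9 of 10 cardiomyocyte and 2 of 8 fibroblast markers. Among the other kept markers it was above 0 for 4 of 5 endothelial, 2 of 5 smooth muscle and 1 of 3 macrophage markers. Of the 10390 kept genes, 60.6% were above 0. With quantile normalization the counts were 2 for cardiomyocyte and 1 for fibroblast markers and unchanged for the others, beside 51.4%. The fibroblast marker Lum, with a difference of -0.54, had an unadjusted limma p under 0.05 (adjusted p = 0.743), beside 5.82% of all probes. It was lower with C3a in 3 of 3 replicate numbers. Lum was dim, missed the background call on control replicate 1 and was kept through the C3a arrays alone. The remaining fibroblast markers had differences between -0.12 (Postn) and 0.024 (Col1a1). The ranges of the summed levels overlapped between the groups for every list, and the part of other cells in the results was not tested. In such bulk cultures, fewer cells of a type and less RNA per cell cannot be told apart.

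The sequence upstream of the genes was examined because immediate early and feedback genes often carry elements bound by CREB or by serum response factor close to their start sites. RefSeq windows of 250 bases before the start (GRCr8 assembly) were found for 9 of the 10 genes. There were 10 windows in all, because Spry2 had more than 1 start. Dusp1 and Dusp5 are printed here, since Dusp5 was the only one of the genes whose groups did not overlap and Dusp1 was the only one to pass the unadjusted threshold when an array was left out. The Dusp1 window lies at chr10:17184603-17184852 and the Dusp5 window at chr1:262543524-262543773, both on the plus strand, and capitals mark every match to the motifs described next.
Dusp1: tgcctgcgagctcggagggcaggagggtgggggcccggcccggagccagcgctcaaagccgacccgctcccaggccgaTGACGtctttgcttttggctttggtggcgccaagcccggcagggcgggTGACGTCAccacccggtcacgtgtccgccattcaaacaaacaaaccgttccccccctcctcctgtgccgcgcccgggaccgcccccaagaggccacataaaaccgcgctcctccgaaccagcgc
Dusp5: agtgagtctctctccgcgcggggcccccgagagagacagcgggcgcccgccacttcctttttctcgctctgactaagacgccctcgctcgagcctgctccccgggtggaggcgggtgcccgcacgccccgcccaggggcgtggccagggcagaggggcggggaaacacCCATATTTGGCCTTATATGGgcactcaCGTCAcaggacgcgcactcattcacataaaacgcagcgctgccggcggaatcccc

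The motifs were searched on both strands. The full cAMP response element TGACGTCA occurred in 1.59% of the 33465 windows of this length in the rat genome table and, among these genes, in Dusp1, with its first base 124 bases before the start. Its core TGACG, which the full element contains on either strand, was in 18.2% of windows and in those of Dusp1, Dusp2, Dusp5 and Spry2. The CArG box, the recognition motif of serum response factor, was in 1.5% of windows. Dusp5 carried 2 of them directly next to each other, starting 82 and 72 bases before the start. The ETS core CCGGAA was in 12.6% of windows and in those of Spry2 and Spry4. The Spry2 matches to TGACG and CCGGAA lie in the same window, and its other window has no match. The AP-1 motif TGANTCA, found in 6.34% of windows, was in none of these genes' windows. The G+C content was 68.8% for Dusp1 and 67.2% for Dusp5, against a median of 51.2% over all windows. These matches describe letters in a window and not bound sites.

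With C3a for 12 h, no feedback gene differed from control at an adjusted p under 0.05. limma, which pools the estimate of spread across probes, called 0 of the 8 kept feedback genes after Benjamini-Hochberg adjustment, beside 0% of all 23438 kept probes. At an unadjusted p under 0.05 it called 0 of 8, beside 5.82% of all probes, and the plain equal-variance test of the methods called 1 of 8, Dusp5, beside 4.73%. The fitted differences ran from -0.45 for Spry2 to 0.24 for Dusp4 on the log2 scale, and 7 of the 8 lay between -0.32 and 0.31, the 5th and 95th percentiles over the 10390 kept genes. Of the 8, 4 were well above background on all 6 arrays, Dusp5, Dusp6, Spry4 and Spred1. The others, Dusp1, Dusp4, Dusp10 and Spry2, were kept through the C3a arrays alone, because each missed the background call on control replicate 1. Dusp2 reached it on no array.

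**Figure D1:**
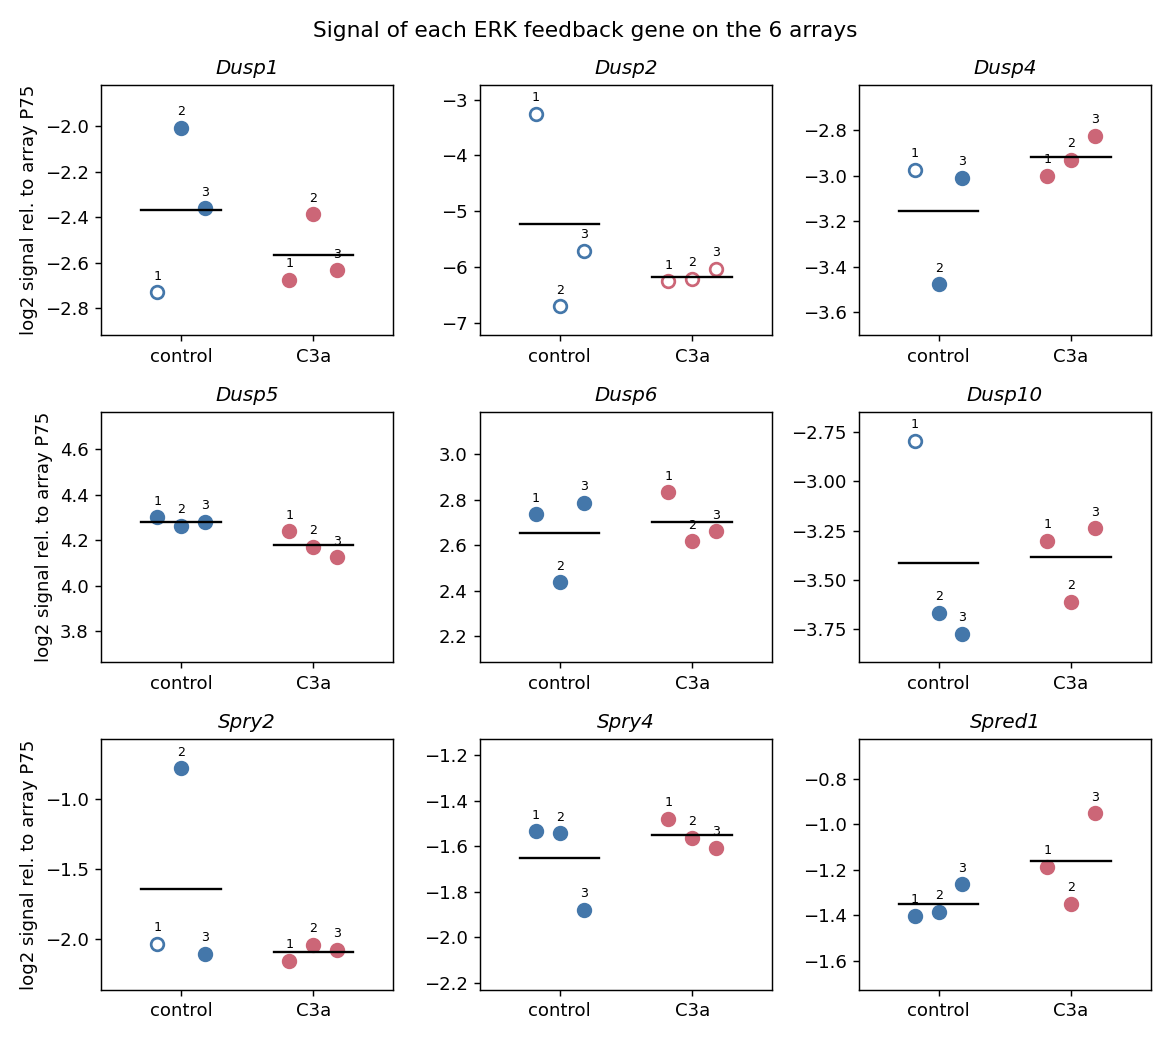
Level of each feedback gene with a matched probe on the 6 arrays, as log2 signal relative to the array's P75, with its own scale for each gene. Blue points are control and red points C3a arrays, numbers are replicates, open points mark arrays where the probe was not well above background, and bars are group means; the groups are apart only in Dusp5, and control replicate 2 stands alone in Spry2.

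Dusp5, a nuclear phosphatase specific for ERK, had levels of 4.30, 4.26 and 4.28 in control replicates 1 to 3 and 4.24, 4.17 and 4.13 in the C3a replicates of the same numbers. The C3a arrays were all below the control arrays, with no overlap, and the whole range over the 6 arrays was 0.17, the narrowest of these genes and below the median range of 0.353 for the 8556 genes detected on all arrays. The mean was 4.28 ± 0.018 in control and 4.18 ± 0.057 with C3a (SD, n = 3 each, limma adjusted p = 0.756). The difference was -0.10 (SE 0.088, 95% interval -0.31 to 0.10), a fold of 0.931 with an interval of 0.806 to 1.07. An exact permutation test gave p = 0.1, the smallest that 3 against 3 arrays allow. Among all kept probes 12.5% had groups that did not overlap and 4.46% had C3a values wholly below control, and among those well above background on all 6 arrays 4.83%. The methods' equal-variance test, which uses the spread of this probe alone, was past 0.05 before adjustment, with an interval of -0.20 to -0.0081, and had an adjusted p of 0.783. Dusp5 has 2 spots on each array, whose log2 values were 0.030 to 0.145 apart.

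Dusp6, the cytoplasmic ERK phosphatase and a common readout of ERK activity, had levels of 2.73, 2.44 and 2.79 in control and 2.83, 2.62 and 2.66 with C3a. The groups overlapped, and control replicate 2 was the lowest array. The group means were 2.65 ± 0.19 and 2.70 ± 0.11 (SD, n = 3 each), and the difference of 0.050 (SE 0.13, 95% interval -0.25 to 0.35) had a limma adjusted p of 0.914. The interval covers folds from 0.841 to 1.27. With 10 spots on each array, Dusp6 was the most often printed of these probes. The SD between its spots was 0.065 to 0.106, below the SD between arrays of either group.

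Dusp1, the first described MAP kinase phosphatase, acts in the nucleus on p38 and JNK as well as ERK and is a classical immediate early gene. Its levels were -2.73, -2.01 and -2.36 in control and -2.68, -2.39 and -2.63 with C3a. The groups overlapped because control replicate 1, where the probe missed the background call, was the lowest array of all. The difference was -0.20 (SE 0.19, 95% interval -0.65 to 0.25), with a limma adjusted p of 0.769 and a fold of 0.871. Without control replicate 1 it was -0.38 (95% interval -0.76 to -0.0028), with an unadjusted p of 0.0487 beside 6.34% of all probes and an adjusted p of 0.675. Without control replicate 2, the highest array, it was -0.019, with an adjusted p of 0.998. With normexp background correction, which subtracts the local background, models what remains and adds an offset of 50 units, the difference was 0.052.

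Dusp4, a nuclear phosphatase induced by ERK activity, had levels of -2.97, -3.48 and -3.01 in control and -3.0, -2.93 and -2.82 with C3a. Control replicate 2 was the lowest array, and the other controls lay close to the lowest C3a array on either side of it. The difference was 0.24 (SE 0.15, 95% interval -0.13 to 0.60), with a limma adjusted p of 0.743 and a fold of 1.18. It was 0.073 without control replicate 2 and 0.11 with array weights. Dusp10, which prefers p38 and JNK over ERK, had levels of -2.80, -3.67 and -3.77 in control and -3.30, -3.61 and -3.24 with C3a. The highest array was control replicate 1, where the probe missed the background call, so the groups overlapped. The difference was 0.028 (SE 0.26, 95% interval -0.59 to 0.64), with a limma adjusted p of 0.978. Without control replicate 1 it was 0.34, with an unadjusted p of 0.0602.

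Dusp2, a phosphatase best known from activated lymphocytes and other blood cells, gave no level that could be told from background. Its intensity was 28.6, 3.51 and 5.12 units in control and 3.0, 3.87 and 3.14 with C3a. The value on control replicate 1 stood above the others, as that array's background did, and was still below the 56.4 units of the dimmest probe called well above background there. No fold is given for this gene.

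Spry2, which restrains receptor tyrosine kinase signalling at the level of Grb2 and Raf, showed the widest spread of the kept feedback genes. Its levels were -2.03, -0.78 and -2.10 in control and -2.15, -2.04 and -2.07 with C3a. A single array, control replicate 2, stood apart from the other 5, which were all between -2.15 and -2.03. The group means were -1.64 ± 0.74 and -2.09 ± 0.058 (SD, n = 3 each). The difference was -0.45 (SE 0.33, 95% interval -1.24 to 0.34), with a limma adjusted p of 0.745 and a fold of 0.732. Without control replicate 2 it was -0.021, and with normexp correction it was -0.20.

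Spry4, another Sprouty protein of the same pathway, had levels of -1.53, -1.54 and -1.88 in control and -1.48, -1.56 and -1.61 with C3a. Control replicate 3 was the lowest array and the remaining 5 spanned a narrow range. The difference was 0.10 (SE 0.12, 95% interval -0.19 to 0.39), with a limma adjusted p of 0.809 and a fold of 1.07. Spred1, a membrane protein that brings the Ras inactivator neurofibromin to Ras, had levels of -1.40, -1.39 and -1.26 in control and -1.19, -1.35 and -0.95 with C3a. The C3a value was above the control value of the same replicate number in 3 of 3 pairs, by 0.21, 0.036 and 0.31, and the groups overlapped. The difference was 0.19 (SE 0.13, 95% interval -0.11 to 0.48), with a limma adjusted p of 0.743 and a fold of 1.14. Without C3a replicate 3, the highest array, it was 0.081, and with array weights it was 0.085. Neurofibromin itself, Nf1, had a difference of 0.30 with the same adjusted p, and was added after its value was seen. It was kept through the C3a arrays alone and missed the background call on control replicate 1, its lowest array at -2.96.

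**Figure D2:**
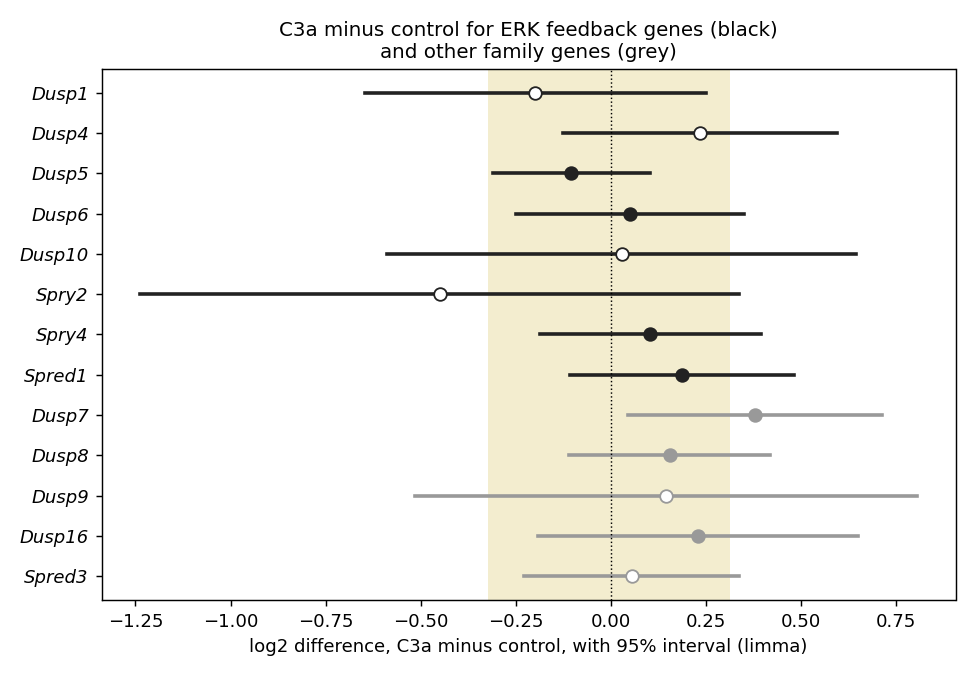
Log2 difference, C3a minus control, with its 95% interval from limma for the 8 kept feedback genes (black) and 5 further genes of the same families (grey); open circles mark probes not well above background on all 6 arrays, and the shaded band is the 5th to 95th percentile over all kept genes, -0.32 to 0.31. All black intervals cross 0, and that of Spry2 is the widest.

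The intervals state what size of change these arrays could have missed under P75 scaling. For the 4 genes well above background on every array, changes beyond 1.07-fold upward in Dusp5, 1.27-fold in Dusp6, 1.31-fold in Spry4 and 1.40-fold in Spred1 lay outside the 95% intervals. Downward, the bounds were folds of 0.806, 0.841, 0.878 and 0.928. On the log2 scale the intervals were wider and reached further down without scaling, -0.93 to 0.073 in Dusp5 and -0.76 to 0.21 in Dusp6. The same held with spike-in scaling, at -1.34 to 0.22 and -1.19 to 0.37. With quantile normalization they were narrower, at -0.34 to 0.0078 and -0.22 to 0.27. For the dimmer genes the intervals were broader, reaching from a fold of 0.424 to 1.26 in Spry2 and from 0.665 to 1.56 in Dusp10.

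How the arrays were scaled to each other set the sign of most of these differences. With P75 scaling the median difference of all kept probes was 0.048. Without scaling it was -0.28, and with scaling to the array's E1A spike-in probes it was -0.41. At an unadjusted p under 0.05, Spry2 was then called lower in both, beside 11.1% of all probes without scaling and 5.47% with spike-in scaling. The groups did not overlap in 2 of the 8 with quantile normalization, Dusp4 and Dusp5, beside 12.7% of probes, in 2 without scaling, Dusp5 and Dusp6, beside 10.2%, and in 0 with spike-in scaling, beside 1.74%. Without scaling and with spike-in scaling, Dusp4, Dusp6, Dusp10, Spry4 and Spred1 turned from above 0 to below 0. P75 scaling, no scaling and spike-in scaling differ only by 1 constant for every probe of an array. Taken relative to the median of all probes, the differences were therefore the same in them. These were 0.19 for Dusp4, 0.14 for Spred1, 0.055 for Spry4, 0.0017 for Dusp6, -0.021 for Dusp10, -0.15 for Dusp5, -0.25 for Dusp1 and -0.50 for Spry2. With quantile normalization, which is not such a shift, they ran from 0.22 for Dusp4 to -0.45 for Spry2. Dusp5 and Spry2 were below 0 in every alternative run, over ranges of -0.56 to -0.078 and -0.91 to -0.021.

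**Figure D3:**
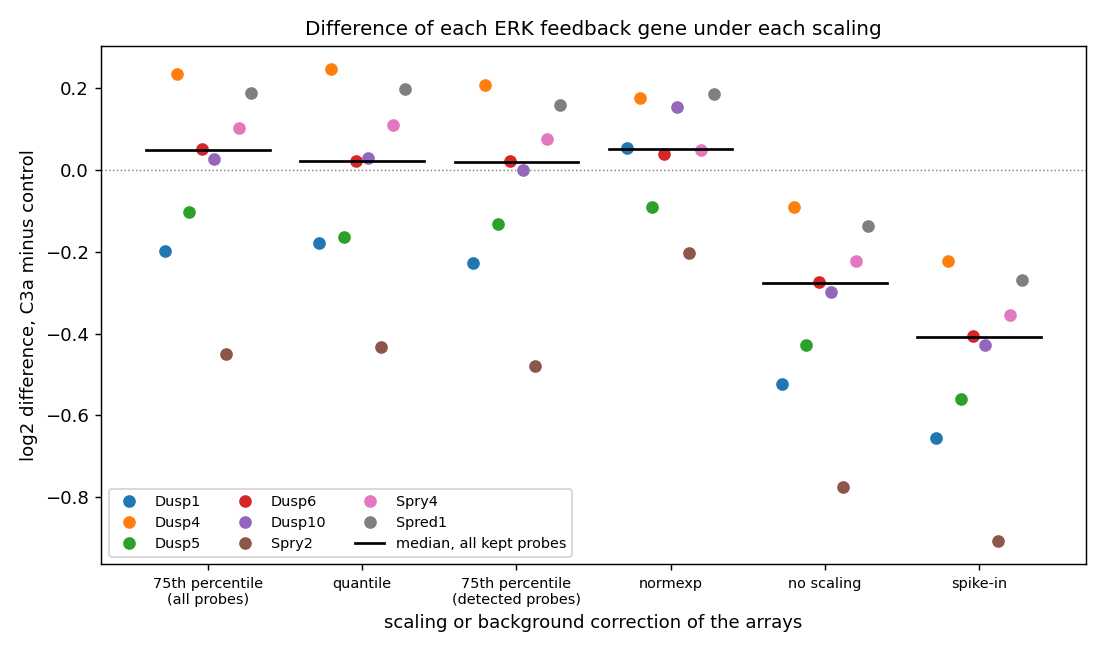
Log2 difference, C3a minus control, of each kept feedback gene (coloured points) under 6 ways of scaling or background correction, with the median of all kept probes as a black bar. The median is near 0 under the first 4 and at -0.28 and -0.41 without scaling and with spike-in scaling, and the genes keep nearly the same order around it except under normexp, where Dusp1 is at 0.052.

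The feedback genes were also compared array by array. Of the 8, the number above their own mean over the 6 arrays was 5, 4 and 4 on control replicates 1 to 3 and 6, 3 and 3 on the C3a replicates. The share of all kept genes above their own mean was 61.8%, 37.3% and 47.4% on the control and 66.2%, 58.3% and 43.7% on the C3a arrays. By family, the difference under P75 scaling was above 0 for 3 of 5 kept phosphatases and 2 of 3 kept Sprouty and Spred genes. Of the 10390 kept genes, 60.6% had a difference above 0. Without scaling 0 of 8 had one above 0, beside 4.66% of kept genes.

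The same-numbered control and C3a arrays, which also lay at the same position along the slide, deviated together, so the fit was also run with the number as a replicate block. It called 0 of the 8 feedback genes at an adjusted or unadjusted p under 0.05, beside 13.6% of all probes at the unadjusted threshold. The smallest adjusted p among them was 0.456, for Spred1, and the SE of its difference was then 0.099.

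The other negative regulators of the pathway were described as a list of 18 genes, of which 16 had a matched probe and 13 were kept. Their median difference was 0.090, from -0.095 to 0.38, beside 0.036 for all kept genes, and 12 of the 13 were above 0, beside 60.6% of all kept genes, but 1 of 13 without scaling, beside 4.66%. limma called 0 after adjustment and 1 at an unadjusted p under 0.05, beside 5.82% of probes. That gene was Dusp7, a cytoplasmic ERK phosphatase closely related to Dusp6, with levels of -0.24, -0.72 and -0.60 in control and -0.059, -0.23 and -0.13 with C3a. All C3a arrays were above all control arrays, as for 8.04% of kept probes, and the difference was 0.38 (95% interval 0.044 to 0.71, adjusted p = 0.743). With spike-in scaling it was -0.079. Among the related phosphatases, the difference was 0.15 for Dusp8 and 0.23 for Dusp16, both of which act on p38 and JNK, and 0.14 for Dusp9, an ERK phosphatase. Spred3 had a difference of 0.055. Spry3 and Spred2 were not kept, with background calls on 3 and 0 of the 6 arrays.

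The cascade that these inhibitors act on was represented by 21 genes from receptors to the kinases RSK, of which 19 were kept. The median difference was 0.0033, with a range of -0.38 to 0.17. Of the 19, 10 were above and 9 below 0, beside 60.6% of all kept genes above 0. At a threshold of 0.05, limma called 0 by adjusted p, beside 0% of all probes, and 0 by unadjusted p, beside 5.82%. The groups did not overlap in 1 gene with C3a higher and 1 with C3a lower, beside 8.04% and 4.46% of kept probes. Mapk3, which encodes ERK1, had levels of 8.13, 7.71 and 8.00 in control and 8.22, 7.94 and 8.16 with C3a, a difference of 0.16. It did not pass the test, and its sign turned with quantile normalization.

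Of 12 genes of the p38 and JNK branches, which Dusp1 and Dusp10 also act on, 10 were kept, with a median difference of 0.043. The difference was above 0 in 6 of them, beside 60.6% of all kept genes. Mapk14, the p38 alpha kinase, had a difference of 0.036. The JNK genes Mapk8 and Mapk9 had differences of -0.092 and -0.012 at their brightest probes, and from -0.092 to 0.37 and from -0.31 to 0.068 over their 3 probes each. Map2k7, a kinase that activates JNK, was the only one with an unadjusted limma p under 0.05, beside 5.82% of all probes. Its levels were -4.13, -3.02 and -2.80 in control and -2.57, -2.59 and -2.13 with C3a. It was kept through the C3a arrays alone. The groups did not overlap, as for 8.04% of kept probes with C3a higher, and 1 other gene of the list was wholly lower with C3a, beside 4.46%. Control replicate 1 of Map2k7, far below the other controls, lay under the level of the dimmest probe called well above background on that array. The values below therefore rest in part on a probe at background. The difference was 0.89 (95% interval 0.091 to 1.68, limma adjusted p = 0.743), and over the arrays left out in turn it ranged from 0.48, without control replicate 1, to 1.15. With normexp correction it was 0.37.

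Of 15 genes listed as targets of ERK signalling, not all of them known to be induced by it, 14 were kept. Their median difference was 0.074, with a range of -0.57 to 0.15, and 8 were above 0, beside 60.6% of all kept genes. The groups did not overlap in 1 of them, with C3a higher, beside 8.04% of kept probes. Fos and Egr1, immediate early transcription factors, had differences of 0.12 and -0.11. Fos was kept through the C3a arrays alone and missed the background call on control replicate 1, its lowest array. Its levels were -3.55, -2.98 and -2.85 in control and -2.94, -3.05 and -3.04 with C3a. Etv5, an ETS factor often used with Dusp6 and Spry4 as a marker of ERK output, had a difference of -0.0057. Phlda1, a pleckstrin-like protein induced by growth factors, was the only one of the list with an unadjusted p under 0.05, beside 5.82% of all probes. Its levels were -0.82, -0.40 and -1.09 in control and -1.54, -1.03 and -1.44 with C3a, overlapping at 1 array of each group. The difference was -0.57 (95% interval -1.06 to -0.075, limma adjusted p = 0.743), and it was -0.26 with normexp correction. C3ar1, the receptor for C3a, was well above background on all 6 arrays and had a difference of 0.092.

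**Figure D4:**
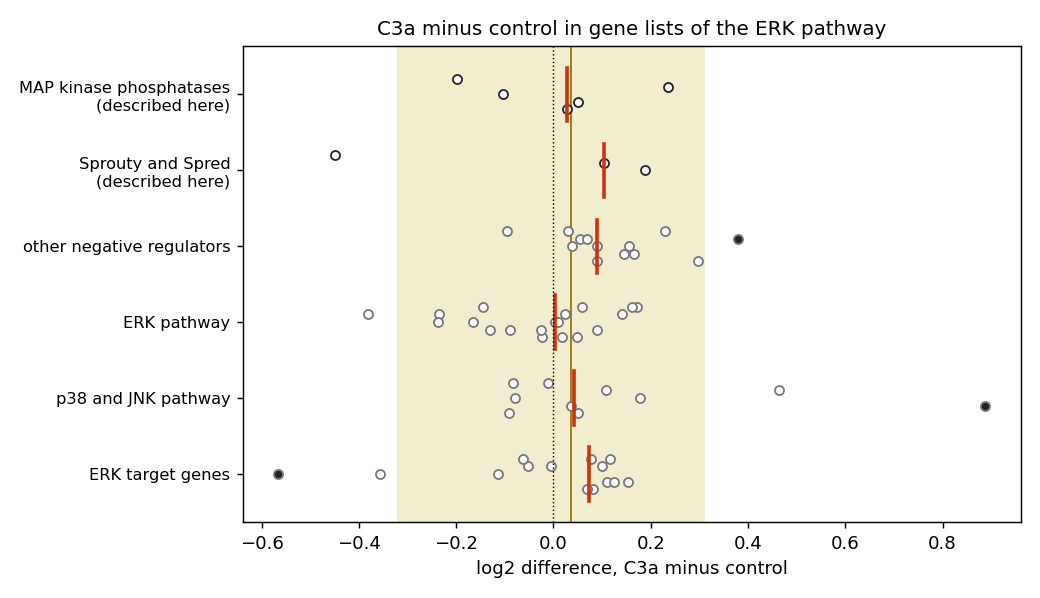
Log2 difference, C3a minus control, of every kept gene in 6 lists; each circle is a gene, filled where the unadjusted limma p was under 0.05, and red bars are list medians. The shaded band and the vertical line within it are the 5th to 95th percentile and the median over all 10390 kept genes, and the only filled circles are Dusp7, Map2k7 and Phlda1.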

How the data were processed

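Per the labels, RNA from 3 control and 3 C3a cultures was hybridised to 1-colour Agilent rat arrays. The authors deposited the scanner intensity of every spot, background-corrected by Feature Extraction 11.5.1.1 and not normalized between arrays. They also deposited a log2 table of 36638 probes, which equalled the log2 intensity minus the P75 of the array (r of at least 0.99999 with the scanner values), uncentred. The methods name GeneSpring and analysis of variance at 0.05.

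Here control spots and outliers were left out, spots of a probe were averaged, and log2 intensity minus P75 was compared between groups with lmFit and eBayes of limma (version 3.58.1, R 4.3.3). Its two-sided p-values were adjusted by Benjamini-Hochberg across the 23438 kept probes. The limma step was tested on simulated data. A probe counted as well above background where at least 50% of its spots did. Probes were named through accessions in the GRCr8 RefSeq gene table, which matched 21092 of 45572 probes (46.3%).

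The feedback genes and all lists were chosen with earlier results of these data known. All 10 feedback genes are named whatever their values. Of the lists, the genes with an unadjusted p under 0.05, MAP kinases, the other family genes and C3ar1 are named. The result of 1 gene under this rule is not reported here. Other genes (Nf1, Fos, Egr1, Etv5) were added after their values were seen. Alternatives were other scalings, normexp (offset 50), other filters, the authors' table, a variance trend, array weights, the replicate block, each array left out and the methods' test. Normexp used the median spot signal, and its added offset by itself shrinks the log2 differences of dim probes. Same-numbered arrays deviated together (r of 0.28, 0.32 and 0.31 over kept probes, against -0.26 to -0.093 for other numbers), so the numbers were taken as pairs from the data and not from the labels. The number also gives the position along the slide, and a shared culture and a shared position cannot be told apart. Since deviations within a group sum to 0, a positive r for the same number forces the others below 0 on average.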

Additional observations from a re-analysis of the deposited data

How the results depend on the processing

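The count of feedback genes past an adjusted p of 0.05 was 0 under every alternative run. The count at an unadjusted p under 0.05 became 1 (Spry2, lower) without scaling, beside 11.1% of all probes, and with spike-in scaling, beside 5.47%. It was 1 with the methods' test (Dusp5, lower), beside 4.73%. When each array was left out it was 0 to 1 (Dusp1, lower, without control replicate 1, beside 6.34%). The count of genes whose groups did not overlap was 1 with P75 scaling, beside 12.5% of all probes. It was 2 with quantile normalization (Dusp4 and Dusp5), beside 12.7%, and 2 without scaling (Dusp5 and Dusp6), beside 10.2%. With spike-in scaling it was 0, beside 1.74%. Under the replicate block, 0 feedback genes passed either threshold and no call among them changed, while 13.6% of all probes passed the unadjusted one. Of 148 single differences of feedback genes under an alternative, 128 kept their sign and 20 turned, and of 225 for the other named genes 202 kept it and 23 turned. The kept signs include many that could not turn, because some alternatives leave the difference itself unchanged. Those alternatives were the other filters, the variance trend, the replicate block, the methods' test and, for genes with 1 probe, the mean of all probes. Without scaling the differences that turned were Dusp4 -0.090, Dusp6 -0.28, Dusp10 -0.30, Spry4 -0.22, Spred1 -0.14, Mapk3 -0.16, Mapk14 -0.29, Dusp8 -0.17, Dusp9 -0.18, Dusp16 -0.095, Spred3 -0.27 and C3ar1 -0.23. With spike-in scaling they were Dusp4 -0.22, Dusp6 -0.41, Dusp10 -0.43, Spry4 -0.35, Spred1 -0.27, Mapk3 -0.30, Mapk14 -0.42, Dusp7 -0.079, Dusp8 -0.30, Dusp9 -0.31, Dusp16 -0.23, Spred3 -0.40 and C3ar1 -0.36. With the percentile over detected probes Dusp10 was at -0.00091. These scalings move every probe of an array by 1 constant, which is the cause of these turns. For the rest the cause was not tested. These were Dusp1 at 0.052 with normexp, Mapk3 at -0.017 and Mapk14 at -0.048 with quantile normalization, Dusp6 at -0.052 and Spred3 at -0.018 with array weights, and Mapk8 at 0.11 as the mean of all probes of the gene. Leaving out each array gave ranges that crossed 0 for Dusp6 (-0.058 to 0.12), Dusp10 (-0.15 to 0.34), Spry4 (-0.011 to 0.16), Mapk8 (-0.19 to 0.019), Mapk9 (-0.029 to 0.0099), Dusp9 (-0.14 to 0.46) and Spred3 (-0.041 to 0.13). Signal over background limits Dusp1, Dusp4, Dusp10 and Spry2, which missed the background call on control replicate 1.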
